A study of Mus musculus with 12 samples.

Results

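The genes described here encode parts of the β-adrenergic and cyclic AMP (cAMP) signalling chain of fat cells, the receptor Adrb3, the G protein subunit Gnas, the adenylyl cyclases Adcy3, Adcy6, Adcy7 and Adcy9, and the phosphodiesterases Pde3b, Pde4b and Pde4d. They are 9 genes picked by name, and 8 of them have a row in both deposited tables, which hold 19262 genes for the knockout comparison and 16785 for the transgene comparison. Adcy6 was not analysed here. Messenger RNA was sequenced in 12 libraries of primary stromal vascular cells, the mixed non-fat-cell fraction of white adipose tissue that contains adipocyte progenitors, from C57BL/6 mice aged 6 weeks. There were 4 groups of 3 libraries. WT cells were wild type and TKO cells were miR-26a-1-/- and miR-26a-2-/- and also miR-26b-/-, that is, without any of the miR-26 genes, and both were grown to confluency. CTL and Dox cells both carried M2rtTA, a transactivator that works in the presence of doxycycline, and the transgene eGFP.miR-26a, and only Dox cells received doxycycline, at 1 mg/ml for 4 days. The cells in which M2rtTA is made are not given in the labels. Effects of doxycycline itself and of induced miR-26a cannot be told apart, because no doxycycline-treated cells without the transgenes were included. The labels do not say whether the libraries of a group came from separate animals, so the p-values measure only the spread between these libraries.

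When noradrenaline binds a β-adrenergic receptor, the stimulatory G protein is activated and adenylyl cyclases in the membrane make cAMP. cAMP activates protein kinase A, which in fat cells starts the release of fatty acids from stored triglyceride, and phosphodiesterases end the signal by breaking cAMP down. A microRNA such as miR-26 represses messenger RNAs by pairing of its seed with sites that lie mostly in their 3′ untranslated region (UTR).

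The mature miR-26 sequences are shown first because the study removed and induced them, followed by the best seed match in each of the 3 genes that had one. The seed, bases 2 to 8 from the 5′ end, is in capitals, and in the target sites the capitals mark the bases that pair with it. The miRNA sequences are from RefSeq (GRCm38.p6) and the sites are from the GENCODE vM21 transcripts.
mmu-miR-26a-5p: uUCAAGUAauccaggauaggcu
mmu-miR-26b-5p: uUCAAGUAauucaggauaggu
Pde4b site: gcctttccagtTACTTGAgtttggagcca
Adcy3 site: agctttactcaACTTGA
Pde4d site: tgcacttgttcACTTGAtgggggtctta
The seed is the same in both miRNAs, which differ by C11U and C21U (miR-26a base, position from the 5′ end, miR-26b base) and by 1 base in length. Mature miR-26a is encoded at chr9:119031811-119031832 (+) and chr10:126995543-126995564 (+), and miR-26b at chr1:74394324-74394344 (+). On the messenger RNA, TACTTGAA is the longest match (8mer), TACTTGA and ACTTGAA are the 7-base matches, and ACTTGA is the 6-base match. Only the sense strand was searched, in 1 chosen coding transcript a gene. Pde4b held TACTTGA at base 121 of its 1920-base 3′ UTR (chr4:102605460-102605466, +, exon 15), and 6 of its 9 coding transcripts with a 3′ UTR share that site. Adcy3 held a 6-base match in the last bases of its annotated 738-base 3′ UTR (chr12:4213520-4213525, +, exon 22). The annotated transcript ends there, so whether an A follows, which would make it a 7-base match, could not be read. None of the 4 coding Adcy3 transcripts with a 3′ UTR held a longer match within its annotated bases. Pde4d held a 6-base match at base 1397 of 2117 (chr13:109952741-109952746, +, exon 10). The 3′ UTRs chosen for Adrb3, Gnas, Adcy7, Adcy9 and Pde3b held none of these letters, although 2 of 16 Gnas coding transcripts held ACTTGAA at chr2:174288568-174288574. Upstream of the 3′ UTR, Pde3b held 1 such 7-base match and Pde4b 1 more 6-base match, and the other 6 genes held none. In the 3′ UTR of the chosen transcript, a 7- or 8-base match was thus present in 1 of the 8 genes (12.5%), against 21.8% of the 11834 genes tested in the knockout comparison that have a 3′ UTR. Among 3′ UTRs within 20% of the length of that of Adcy3, 10.7% held one, and among those near Pde4b in length, 25.3%. A match is a description of the letters and not evidence of binding.

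The deposited values are reads counted per gene, expressed per common library size and corrected with 1 factor for each library. They are called signal below, and every value corresponded to a whole number of reads within 0.1. The recovered depth was 19301969 to 83461531 reads per library. A gene was tested with limma on log2(signal + 1) where 3 or more of the 6 libraries of a comparison reached a signal of 1. This left 12649 genes for the knockout and 12634 for the transgene comparison. Fold changes below are on that scale, which understates changes of weakly expressed genes. The 8 adipocyte progenitor markers were present in every library, with a summed signal of 2923 to 3039 in WT, 2262 to 2366 in TKO, 2783 to 2989 in CTL and 2563 to 2929 in Dox. Of these 8, limma called 2 lower and 0 higher in TKO, where 22.7% of all genes were called lower and 23.2% higher. Ly6a went the other way, by 0.81 on the log2 scale (limma adjusted p 0.0807). With the replicate number as a block it was called higher (limma adjusted p 0.0288). The 7 adipocyte markers with a row summed to 40.0, 40.2 and 49.4 in WT and to 147.8, 160.8 and 39.8 in TKO, and the 5 with a row in the other table summed to 47.2, 54.8 and 85.8 in CTL and 41.6, 56.1 and 58.2 in Dox. Lep had no row. Macrophage markers were high in TKO replicate 2 (249.4 against 35.0 to 55.3 in WT), and epithelial markers were high in CTL replicate 1 and Dox replicate 1 (152.8 and 167.2, against 4.43 to 40.4 in the others of that table). A change in the number of cells of a type and a change in RNA per cell cannot be told apart in bulk libraries.

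Per kilobase of exon, Gnas was far above the other genes in WT, at 108.1 ± 2.24 (SD, n = 3). Adcy7 followed at 10.4 ± 0.970, Adcy3 at 5.49 ± 0.312 and Pde4b at 3.45 ± 0.374. Pde3b at 1.91 ± 0.360 and Adcy9 at 1.54 ± 0.0514 were not separated, since their libraries overlapped. Pde4d at 1.08 ± 0.204 and Adrb3 at 0.239 ± 0.0495 were lowest on this measure. Levels per kilobase, here and below, divide by all annotated exon bases of a gene. These number 12006 for Pde4d, against 4207 in its chosen transcript, and 10560 against 4304 for Pde4b. For Adcy9 they are 5197 against 4974, so the order of the genes depends on the length used. Gnas and Adcy7 stayed first and second, and Adrb3 last, in all 4 groups. In TKO the libraries of Adcy7 and Adcy3 overlapped (11.8 ± 2.91 and 9.52 ± 0.903 per kilobase), whereas in Dox they lay far apart (17.3 ± 3.57 and 4.47 ± 0.994).

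Comparing TKO with WT, 2 of the 8 genes were called higher and 0 lower at a limma adjusted p under 0.05, where 45.8% of all genes tested were called (23.2% higher and 22.7% lower). The median log2 fold change of the 8 genes was 0.04, and that of all genes tested was -0.0009. One of the 2, Adrb3, passed the filter on low values only through TKO, the group where it is high, so it had to differ. Without it 1 of 7 was called and the median was -0.08. With the replicate block limma also called 2 (Adcy3 and Adrb3), against 40.3% of all genes. In Dox against CTL limma called 0 of the 7 genes tested and 0.0% of all genes. At an unadjusted p under 0.05 there were 3 of the 7 (Adcy3, Adcy7 and Adcy9), against 5.92% of all genes. There edgeR called 0 (0.0% of all genes) and DESeq2 called 1 (0.784%). Libraries of CTL and Dox with the same number varied together, and with the replicate number as a block limma called 2 of the 7 genes, 1 in each direction, against 2.1% of all genes (0.562% higher and 1.54% lower). With the block and with the trend of fold change on transcript length and GC content removed it called 2, against 7.38%. That trend was larger in TKO against WT, where fold change had a Spearman correlation of -0.319 with length and 0.314 with GC content. In Dox against CTL these correlations were -0.0345 and 0.102. The groups did not overlap for 3 of the 8 genes of the knockout comparison (2 with TKO above, Adrb3 among them, and 1 below), where this held for 58.8% of all genes, 29.4% in each direction. In the transgene comparison they did not overlap for 2 of the 7 (1 with Dox above, 1 below), where it held for 12.2% of all genes, 6.5% above and 5.66% below. The 9 genes were chosen with results of these libraries known, so their values and p-values describe them and are not independent evidence.

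**Figure D1:**
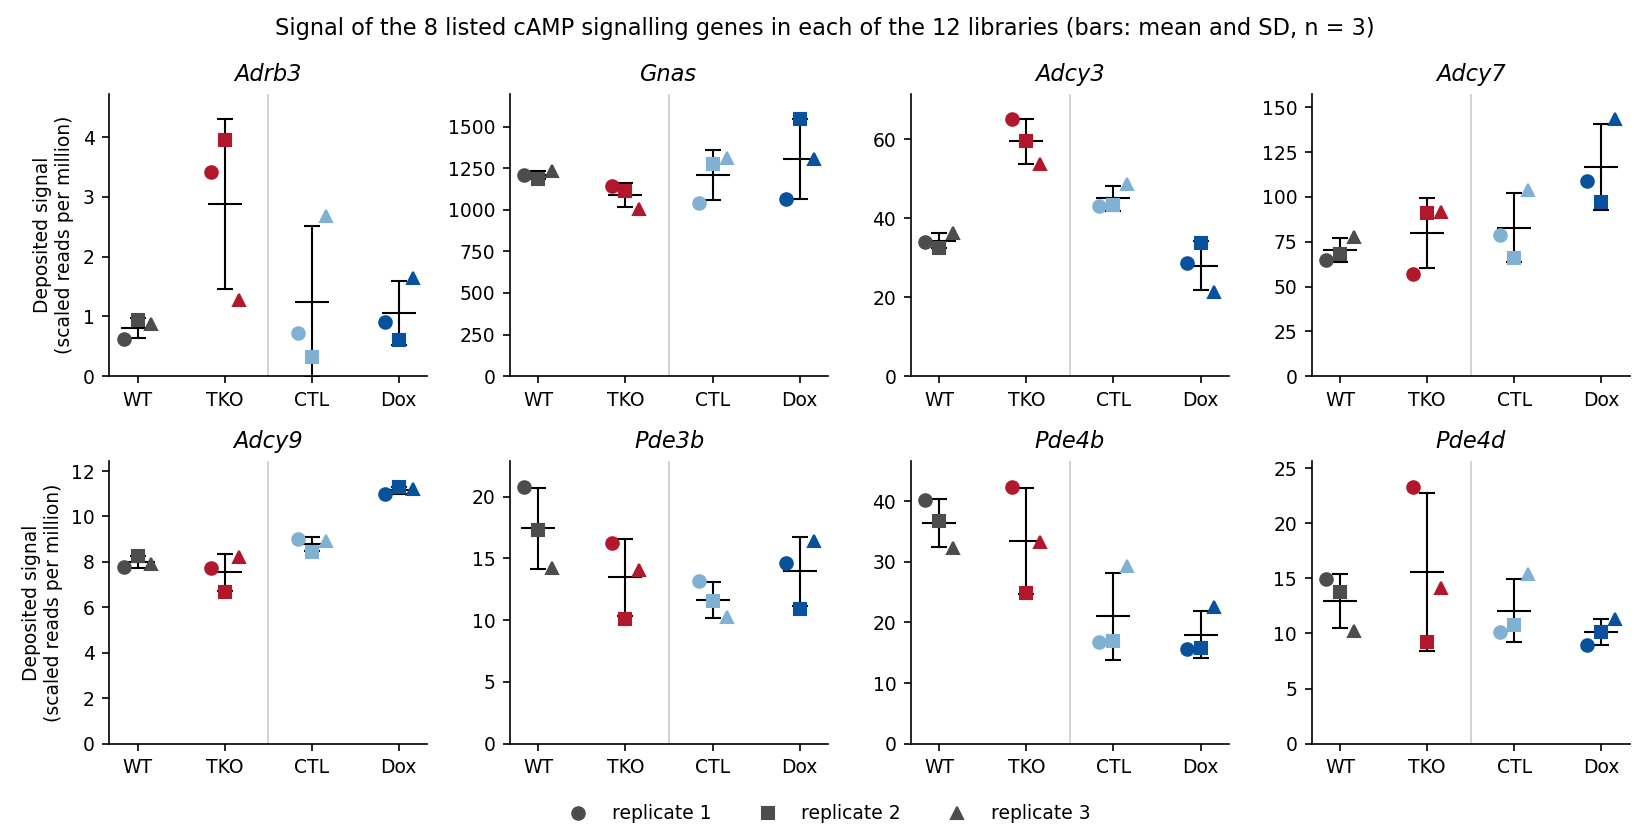
Deposited signal (y axis, from 0, each gene on its own scale) of the 8 genes with rows, in each library of the 4 groups (x axis). Marker shapes give the replicate number and bars the mean and SD (n = 3); a bar that would pass below 0 ends at the axis. Adcy3 was above every WT library in all 3 TKO libraries and below every CTL library in all 3 Dox libraries.

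Adrb3 encodes the β3-adrenergic receptor, the main β-receptor of rodent fat cells (chr8:27225776-27250616, GRCm38, minus strand). Its signal was 0.618, 0.933 and 0.872 in WT, against 3.42, 3.95 and 1.275 in TKO. All 3 TKO libraries were above WT, TKO replicate 3 only narrowly. The ratio of the group means was 3.57, and the log2 fold change was 1.03 ± 0.29 (SE, n = 3 per group, limma adjusted p 0.0277). Adrb3 passed the filter on low values only through TKO, since no WT library reached a signal of 1. The call was lost when any single library other than TKO replicate 3 was left out (limma adjusted p 0.0602 to 0.0920), and without TKO replicate 3 the change was 1.38 (limma adjusted p 0.00205). In the authors' deposited table the log2 fold change of Adrb3 was 1.83 with a false discovery rate of 0.00232. Of the exon bases of Adrb3, 24.9% are shared with Gm45470 on the opposite strand, which read 0.49 to 0.812 in WT and 0.404 to 0.709 in TKO.

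TKO replicates 1 and 2, highest for Adrb3, were also the libraries high in adipocyte markers. Adipoq, the adipocyte hormone adiponectin, read 1.18, 1.85 and 2.80 in WT, against 15.97, 16.3 and 0.787 in TKO, and Fabp4, the fatty acid carrier of fat cells, read 25.5, 25.997 and 25.6 in WT, against 83.5, 80.7 and 27.1 in TKO. Of the 5 adipocyte markers tested in TKO against WT, limma called 0 (1 at an unadjusted p under 0.05) where it called 45.8% of all genes. Fabp4 was called by limma with library-size scaling (adjusted p 0.0426) and by edgeR (adjusted p 0.0328), and DESeq2 called Fabp4 (adjusted p 0.000842), Plin1 (0.0314) and Adipoq (0.0447). In the transgene libraries Adrb3 read 0.729, 0.327 and 2.69 in CTL against 0.906, 0.608 and 1.65 in Dox, with overlap, and it did not pass the filter there. The highest of these libraries, CTL replicate 3, also had the highest adipocyte markers of that table, and its Adipoq read 6.51 where the other CTL libraries read 0.527 and 0.234. The part of adipocyte markers in the Adrb3 difference was not tested. Adrb1, the β1-adrenergic receptor, did not pass the filter and read 0.272 to 0.5 in WT, against 0.215 to 0.255 in TKO.

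**Figure D2:**
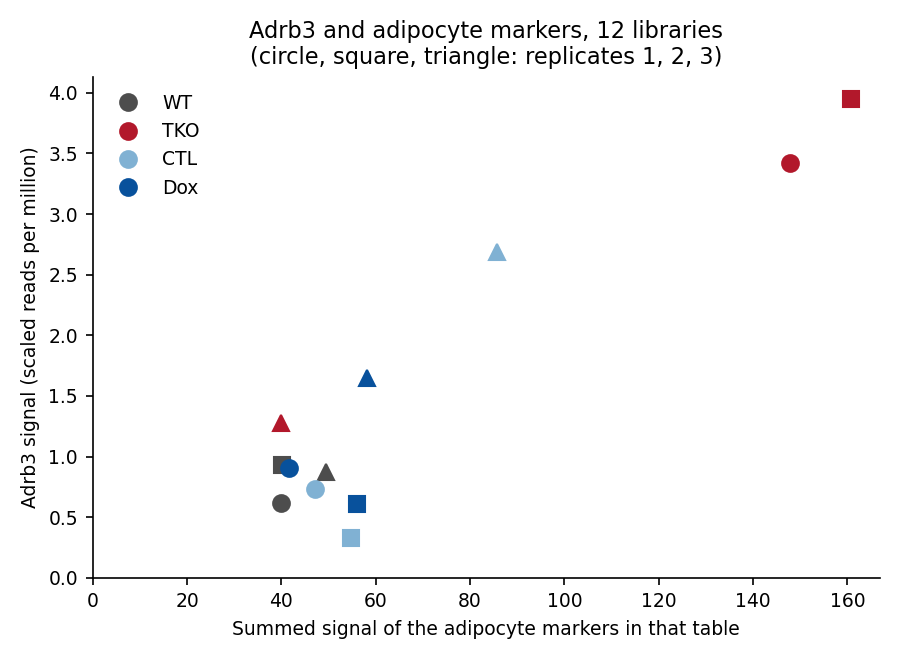
Adrb3 signal (y axis) against the summed signal of the adipocyte markers (x axis, 7 markers with a row for WT and TKO and 5 for CTL and Dox, so positions along x compare only within a table) in 12 libraries. TKO replicates 1 and 2 lie at the upper right, and TKO replicate 3, with markers at 39.8 and Adrb3 at 1.275, lies near the WT libraries.

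Gnas encodes the stimulatory G protein alpha subunit that links the receptors to the cyclases (chr2:174284320-174346744, plus strand). Gnas read 1208, 1184 and 1234 in WT, against 1145, 1114 and 1005 in TKO. The TKO libraries were all below WT, by a ratio of the means of 0.90. The log2 fold change was -0.15 (95% confidence interval -0.35 to 0.04, limma adjusted p 0.164), so the difference did not pass. With that length and GC trend removed the change was -0.27 (limma adjusted p 0.0388), and with library-size scaling it was -0.03 (limma adjusted p 0.790). In CTL it read 1039, 1277 and 1314 and in Dox 1067, 1545 and 1303, with overlap, and the log2 fold change was 0.10 (95% confidence interval -0.30 to 0.50, limma adjusted p 0.995). Of the exon bases of Gnas, 22.0% are shared with genes on the opposite strand, Gm20721 and Nespas, whose highest signals were 2.09 and 0.514 over the 12 libraries.

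Adcy3 encodes a membrane adenylyl cyclase known for its part in odour sensing and in body weight (chr12:4133103-4213525, plus strand). Its signal was 34.1, 32.5 and 36.4 in WT, against 65.1, 59.5 and 53.8 in TKO. No TKO library came near the WT range, and the ratio of the means was 1.73. The log2 fold change was 0.77 ± 0.09 (SE, n = 3 per group, limma adjusted p 0.000983). It was called without any single library (limma adjusted p 0.00195 to 0.00821) and under each other alternative tried, where it ranged from 0.70 to 0.90. With doxycycline the direction was the opposite. Adcy3 read 43.1, 43.5 and 48.7 in CTL and 28.7, 33.7 and 21.4 in Dox. All Dox libraries were below all CTL libraries, with Dox replicate 3 lowest, and the ratio of the means was 0.620. The log2 fold change was -0.69 ± 0.16 (SE, n = 3 per group, limma adjusted p 0.546). With the replicate block limma gave an adjusted p of 0.0389, and DESeq2, without the block, gave 0.0288. The differences within numbered pairs were -0.57, -0.36 and -1.15, lower with doxycycline in 3 of 3 pairs. Leaving out 1 pair gave -0.86 to -0.46 with the block, at a limma adjusted p of 1.78e-06 to 0.00581. Those fits hold fewer libraries and rest heavily on the spread borrowed from other genes, so their smaller p-values add no certainty. The authors' deposited table gave Adcy3 a log2 fold change of 0.79 in TKO (false discovery rate 4.26e-08) and of -0.69 with doxycycline (p 0.000472, false discovery rate 0.509).

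The comparisons of TKO with WT and of Dox with CTL share no libraries. Among 12373 genes tested in both, 46 were called higher in TKO by limma and lower with doxycycline by limma with the block (0.372%), and Adcy3 was the only one of the 9 genes among them. The reverse combination held for 13 genes (0.105%), none of them among the 9. Of all genes tested in each comparison, 23.2% were called higher in TKO and 1.54% lower with doxycycline with the block. For the reverse these shares were 22.7% and 0.562%. Whether either combination was more frequent than unrelated comparisons would give was not tested. Of the exon bases of Adcy3, 22.1% are shared with Cenpo on the opposite strand, so reads there can be assigned to the right gene only if counting used strand, which is not given in the sources used here. Cenpo itself read 9.32 to 9.46 in WT, against 9.24 to 9.89 in TKO, and 8.58 to 12.1 in CTL and 8.77 to 10.5 in Dox. Its groups overlapped in both comparisons.

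Adcy7, a cyclase abundant in blood and immune cells (chr8:88272403-88329962, plus strand), had the highest level per kilobase of the cyclases with a row. Its signal was 65.05, 68.4 and 77.6 in WT, against 57.2, 90.8 and 91.4 in TKO. TKO replicate 1 was below and the other TKO libraries above all WT libraries, and the log2 fold change was 0.15 (95% confidence interval -0.30 to 0.60, limma adjusted p 0.542). Without TKO replicate 1 it was 0.37 (limma adjusted p 0.0210). Adcy7 read 78.7, 66.0 and 104.1 in CTL and 109.2, 97.0 and 143.4 in Dox. These groups overlapped, but each Dox library was above its numbered CTL partner by nearly the same amount, 0.47, 0.55 and 0.46 on the log2 scale. The log2 fold change of 0.49 had a SE of 0.20 without the block (n = 3 per group, limma adjusted p 0.829) and of 0.07 with it (limma adjusted p 0.0177). Without pair 1 the blocked call of Adcy7 was lost (limma adjusted p 0.0664). Macrophage markers summed to 149.4, 70.9 and 37.4 in CTL and 122.5, 70.5 and 26.9 in Dox. Their part in the Adcy7 values was not tested.

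Adcy9 encodes a widely expressed cyclase that forskolin activates poorly (chr16:4287529-4420498, minus strand). In WT it read 7.77, 8.28 and 7.90 and in TKO 7.72, 6.67 and 8.22, with overlap and a log2 fold change of -0.08 (95% confidence interval -0.31 to 0.15, limma adjusted p 0.540). In CTL it read 8.996, 8.46 and 8.91 and in Dox 10.97, 11.3 and 11.2. The Dox libraries were all higher and tightly grouped, with a ratio of the means of 1.27. The log2 fold change was 0.31 (95% confidence interval 0.08 to 0.54), and Adcy9 did not pass after adjustment (limma adjusted p 0.699, and 0.157 with the block).

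**Figure D3:**
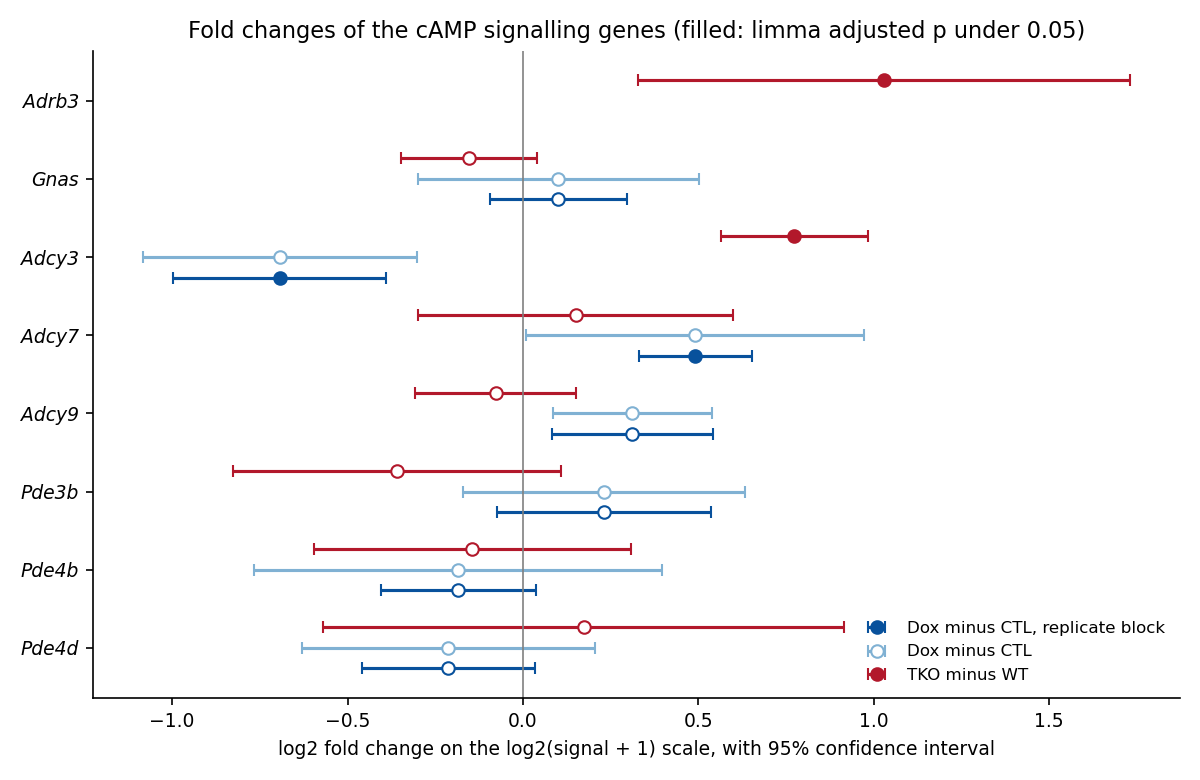
Log2 fold change on the log2(signal + 1) scale with its 95% confidence interval (x axis) for each gene (y axis), for TKO minus WT, Dox minus CTL, and Dox minus CTL with the replicate block. Filled points passed a limma adjusted p of 0.05. Adcy3 lies at 0.77 in TKO and at -0.69 in Dox, and the intervals of Pde3b, Pde4b and Pde4d include 0 in each fit.

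The make-up of the cyclase family differed between the groups. Of the 10 cyclases listed, 6 have rows, and their summed signal per kilobase was 20.7 ± 1.31 (SD, n = 3) in WT, against 29.0 ± 1.42 in TKO, where the lowest TKO library (28.0) was above the highest WT library (22.2). In CTL and Dox the sums were 25.1 ± 3.46 and 27.3 ± 1.79. Adcy7 made up 50.5% ± 2.08 of that sum in WT, against 40.8% ± 9.32 in TKO, and 48.7% ± 4.81 in CTL and 63.0% ± 9.56 in Dox. Adcy3 made up 26.6% ± 0.531 in WT, 32.9% ± 3.69 in TKO, 28.9% ± 2.07 in CTL and 16.5% ± 4.34 in Dox. Adcy3 shares did not overlap between the groups of either comparison. These shares restate the signals above and were not tested.

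The largest cyclase change in TKO was not in the 9 genes. Adcy5, a cyclase prominent in heart and striatum and inhibited by calcium, read 5.67, 5.95 and 8.17 in WT, against 28.6, 32.5 and 17.8 in TKO. All TKO libraries were far above the highest WT library, and the log2 fold change was 1.82 ± 0.24 (SE, n = 3 per group, limma adjusted p 0.00152). Its share of the cyclase sum went from 4.41% ± 0.632 in WT to 12.6% ± 3.32 in TKO. TKO replicate 3, the library low in adipocyte markers, was also the lowest for Adcy5, and without it the change was 2.07. In CTL Adcy5 read 13.7, 14.9 and 7.97 and in Dox 9.66, 18.9 and 3.90, with overlap and a log2 fold change of -0.34 (limma adjusted p 0.992). Adcy1 and Adcy2 did not pass in either comparison.

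**Figure D4:**
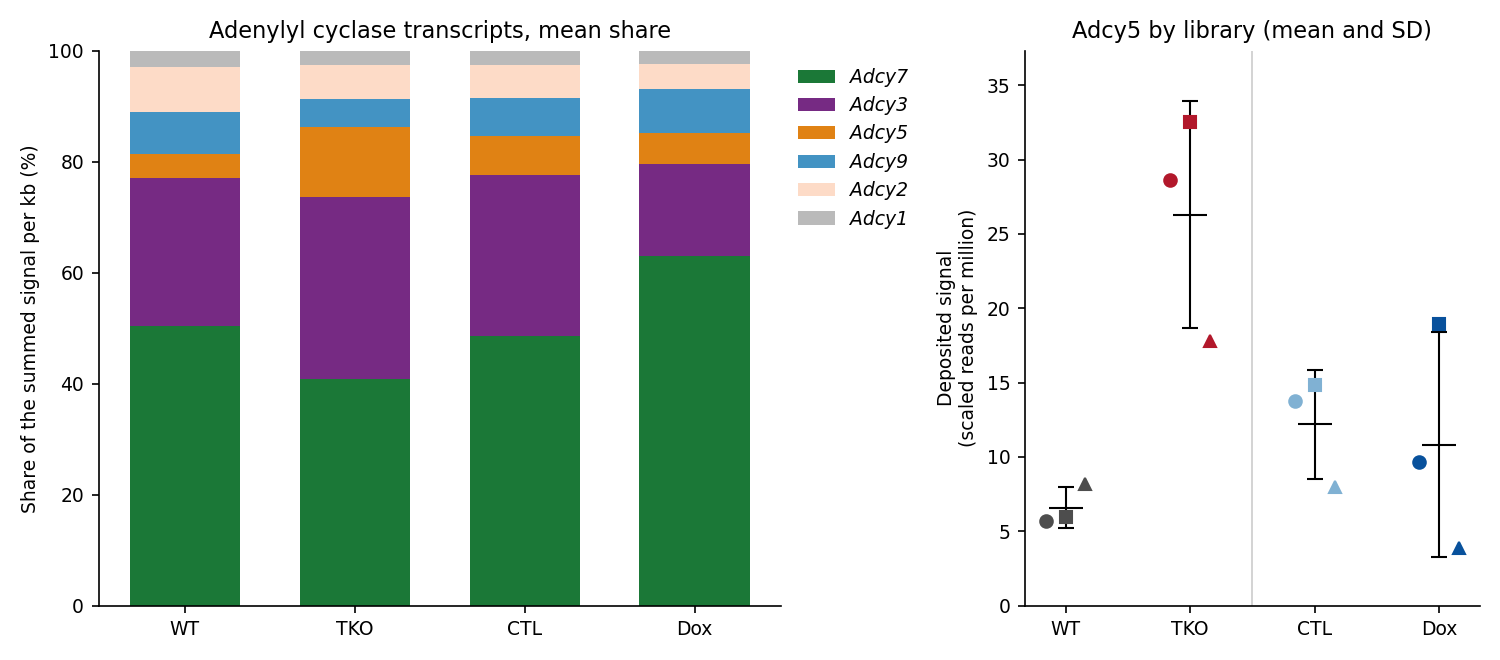
Left, mean share of each adenylyl cyclase in the summed signal per kilobase (y axis, percent) in the 4 groups. Right, Adcy5 signal in each library, with the mean and SD (n = 3) and the marker shape giving the replicate number (circle 1, square 2, triangle 3). Adcy3 takes 32.9% in TKO and 16.5% in Dox, and Adcy5 is above 17 in each TKO library and below 9 in each WT library.

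Pde3b encodes the phosphodiesterase through which insulin lowers cAMP in fat cells (chr7:114415281-114539251, plus strand). It read 20.8, 17.3 and 14.3 in WT, against 16.2, 10.1 and 14.03 in TKO. The groups overlapped, and the log2 fold change was -0.36 (95% confidence interval -0.83 to 0.11, limma adjusted p 0.176). In CTL it read 13.2, 11.5 and 10.3 and in Dox 14.6, 10.9 and 16.4, again with overlap, a change of 0.23 (95% confidence interval -0.17 to 0.63, limma adjusted p 0.943).

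Pde4b and Pde4d encode phosphodiesterases specific for cAMP that are inhibited by rolipram. Pde4b (chr4:102087543-102607259, plus strand), the only one of the 8 genes with a 7-base seed match in the 3′ UTR of the chosen transcript, read 40.2, 36.8 and 32.3 in WT, against 42.4, 24.9 and 33.2 in TKO. The TKO libraries spread on both sides of WT, and the log2 fold change was -0.14 (95% confidence interval -0.60 to 0.31, limma adjusted p 0.563). It read 16.7, 17.0 and 29.3 in CTL and 15.7, 15.8 and 22.5 in Dox. Each Dox library was below its numbered partner, by 0.09, 0.10 and 0.36 on the log2 scale, a change of -0.18 that did not pass (limma adjusted p 0.987, and 0.383 with the block). Pde4d (chr13:108449948-109953461, plus strand) read 14.9, 13.8 and 10.2 in WT, against 23.3, 9.24 and 14.1 in TKO with overlap, and its log2 fold change was 0.17 (95% confidence interval -0.57 to 0.92, limma adjusted p 0.678). Its CTL values were 10.1, 10.7 and 15.4 and its Dox values 8.96, 10.1 and 11.35, a change of -0.21 (limma adjusted p 0.966). Pde4b and Pde4d were both highest in TKO replicate 1 and lowest in TKO replicate 2 within TKO, and both highest in replicate 3 of CTL and of Dox.

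Some other phosphodiesterases were called lower in TKO. Of 12 cAMP phosphodiesterases tested, 5 were lower and 0 higher (median log2 fold change -0.19, against 0.00 for all genes tested, of which 22.7% were called lower), and none of the 5 was Pde3b, Pde4b or Pde4d. Pde8a, the most abundant per kilobase in every group, read 82.1, 72.8 and 67.8 in WT, against 51.1, 40.2 and 44.4 in TKO (-0.71 ± 0.11 SE, n = 3 per group, limma adjusted p 0.00299). All TKO libraries were below WT. Pde4a read 24.8, 25.5 and 22.2 in WT, against 16.7, 14.1 and 16.5 in TKO (-0.59, limma adjusted p 0.00321), and Pde8b fell by 0.56 (limma adjusted p 0.00876). Pde3a fell by 0.45 (limma adjusted p 0.0174) and Pde7a by 0.24 (limma adjusted p 0.0232), but neither passed with the length and GC trend removed (-0.10 and -0.01) or with library-size scaling. Under either of those settings 3 of the 12 were called lower and 1, Pde1a, higher. After removal of the trend, 23.4% of all genes were called lower and 22.4% higher. The median of the 12 was then -0.01, against 0.01 for all genes. Under library-size scaling, 15.1% of all genes were called lower and 30.2% higher. The median of the 12 was then -0.07, against 0.11 for all genes. The summed signal per kilobase of the family was 56.6 ± 3.57 (SD, n = 3) in WT, against 43.0 ± 4.66 in TKO, without overlap. With doxycycline limma called 0 of the 12 with or without the block, where 0.0% and 2.1% of all genes were called.

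The other listed genes of the pathway number 95, of which 71 were tested for TKO and 70 for Dox. In TKO 30 of the 71 were called, 9 higher and 21 lower, where 45.8% of all genes were (23.2% higher and 22.7% lower). Their median log2 fold change was -0.06. Scaling by library size alone moved the median of all genes by 0.11 and gave 14 higher and 14 lower, where 30.2% of all genes were called higher and 15.1% lower (45.4% together). Of the 27 named by rule, 17 kept their call without any single library, and the others (Adra1d, Akap13, Arrb1, Atf1, Crem, Nr4a3, Pde3a, Prkacb, Ptger3 and Ptgir) lost it in 1 or more of those fits. The lists were chosen with results of these libraries known.

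Among receptors, Adra1d, an α1-adrenergic receptor and the most abundant adrenergic receptor per kilobase in each group, read 6.72, 7.82 and 8.45 in WT, against 19.4, 10.5 and 12.1 in TKO (0.75 ± 0.22 SE, n = 3 per group, limma adjusted p 0.0278, and 0.218 after removal of the length and GC trend). Of 9 other receptors that couple to stimulatory or inhibitory G proteins, 3 were called higher and 1 lower, where 23.2% and 22.7% of all genes were, and 2 higher and 0 lower with the replicate block. Pth1r, the parathyroid hormone receptor, rose by 0.90 (limma adjusted p 0.00313), and Adora2b, an adenosine receptor, by 0.60 (limma adjusted p 0.00241). Of 6 receptor kinases and arrestins, which switch receptors off, 3 rose and 0 fell, where 23.2% of all genes were called higher. Among them was Grk6, which read 37.1, 36.4 and 37.2 in WT, against 50.6, 50.7 and 52.9 in TKO (0.47, limma adjusted p 0.00114). Of the 5 G protein alpha subunits tested, Gnai2, an inhibitory one, was the only one called and fell by 0.41 (limma adjusted p 0.00532). With library-size scaling 1 of the 5 was called higher and 1 lower, where 30.2% and 15.1% of all genes were. After removal of the length and GC trend 1 was called higher and 2 lower, where 22.4% and 23.4% of all genes were.

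Downstream of cAMP the calls in TKO were mostly lower, where 22.7% of all genes were called lower and 23.2% higher. With library-size scaling protein kinase A had 1 call in each direction, the anchoring proteins had 1 higher call beside 4 lower, and the CREB list had 1 higher and 2 lower. In that setting 30.2% of all genes were called higher and 15.1% lower. Of 8 protein kinase A subunits and inhibitors, 2 fell and 0 rose. With the replicate block 1 of these 8 fell and 0 rose, where 19.7% of all genes were called lower and 20.6% higher. Prkar2a, a regulatory subunit, read 133, 153 and 138 in WT, against 90.9, 89.6 and 109 in TKO (-0.55, limma adjusted p 0.00496). Of 8 A-kinase anchoring proteins, which place the kinase in the cell, 4 fell and 0 rose, with Akap7 at 18.6, 18.1 and 16.8 in WT, against 10.4, 10.3 and 10.02 in TKO (-0.74, limma adjusted p 0.000595). Of 6 CREB factors and coactivators, through which cAMP acts on transcription, 4 fell and 1, Crem, rose. Crtc2, a CREB coactivator, fell by 0.80 (limma adjusted p 0.000718) and Creb1 by 0.65 (limma adjusted p 0.00125). Of 9 genes known to be induced by cAMP, 4 fell and 1 rose, which was again Crem. With the replicate block 2 of these 9 were called lower and 1 higher. Nr4a2, an immediate early nuclear receptor, read 16.3, 15.98 and 16.3 in WT, against 7.44, 4.57 and 6.43 in TKO (-1.29, limma adjusted p 0.00116). Of 6 lipolysis genes limma called 0. Abhd5 was called higher by limma with library-size scaling (0.27, adjusted p 0.0147) and after removal of the length and GC trend (0.22, adjusted p 0.0276), and DESeq2 called Plin1 higher (adjusted p 0.0314). Plin1, which coats fat droplets and is a marker of fat cells, had the largest change of these, 1.29, 1.78 and 2.40 in WT, against 14.5, 13.9 and 0.986 in TKO, with the same low TKO library as Adipoq.

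With doxycycline limma called 0 of the 70 other pathway genes (5 at an unadjusted p under 0.05, where 5.92% of all genes were). With the replicate block it called 2 of the 70, where 2.1% of all genes were called. The 2 called genes belong to protein kinase A. Prkar2a, lower in TKO, was higher in Dox, at 82.8, 85.5 and 113.4 in CTL and 117.3, 115.4 and 161.8 in Dox (0.48, limma adjusted p 0.0186 with the block and 0.794 without). Its groups did not overlap. Prkaca, the main catalytic subunit, read 80.2, 107.6 and 104.9 in CTL and 59.5, 86.3 and 71.6 in Dox, with overlap, and each Dox library was below its partner (-0.43, limma adjusted p 0.0319 with the block and 0.825 without). Without pair 1 both blocked calls were lost (limma adjusted p 0.0972 for Prkar2a and 0.164 for Prkaca).

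Seed matches and changes were compared gene by gene, as a description. The best site is shown for Adcy5, the cyclase with the largest change, and for the genes called in TKO whose 3′ UTR held an 8mer.
Adcy5 site: accacagataaACTTGAAcagcaccctta
Grk2 site: acacagggtacTACTTGAActttcctatca
Akap7 site: attgctatcagTACTTGAAtgaacatcagt
Creb1 site: atgcttttacgTACTTGAAgtgacttcagt
Akap13 site: atctttcagttTACTTGAAagagttctggt
Capitals mark the bases that match the seed, with the A opposite base 1 of the miRNA where present. Adcy5, with a 7-base match (chr16:35305194-35305200, +), and Grk2, with an 8mer (chr19:4286683-4286690, -), were higher in TKO, Grk2 by 0.32 (limma adjusted p 0.0157). Grk2 was at 0.17 after removal of the length and GC trend (limma adjusted p 0.0308, and 0.0776 with the block as well). Akap7 (chr10:25169567-25169574, -), Creb1 (chr1:64600732-64600739, +) and Akap13 (chr7:75752011-75752018, +) each hold an 8mer and were lower in TKO, Akap13 by 0.44 (limma adjusted p 0.0225). After the same removal Creb1 was at -0.29 (limma adjusted p 0.00417) and Akap13 at -0.20 (limma adjusted p 0.0319, and 0.0600 with the block as well). A 7- or 8-base match is held by 1 of 4 Akap7, 2 of 6 Creb1, 2 of 2 Akap13, 2 of 2 Grk2 and 1 of 1 Adcy5 coding transcripts with a 3′ UTR. Pde7a and Prkacb, each with a 7-base match, were also lower. Pde7a did not pass after the same removal or with library-size scaling. Prkacb kept its call in 1 of 6 fits without 1 library, and its change ranged from -0.27 to -0.0731 over the other alternatives. Gnai3, Prkar1b, Akap6, Crtc1, Grk5, Lpar1 and Abhd5 held a 7- or 8-base match and did not pass in the main limma fit. Abhd5, with an 8mer, was called higher with library-size scaling and after removal of the length and GC trend. Over the 71 other pathway genes tested, 14 (19.7%) held a 7- or 8-base match and 6 (8.45%) an 8mer, where 21.8% and 5.09% of all genes tested with a 3′ UTR did. Adcy3, which was higher in TKO and lower with doxycycline, had a 6-base match at the end of its annotated transcript. The base after that match could not be read. Pde4b, with a 7-base match, passed in neither comparison.

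The genes whose pattern was most like that of each gene were found by Pearson r over the 12 libraries, among 9934 genes, on log2(signal + 1) less the mean of the own table. The libraries share groups and cultures, and the values describe likeness only. For Adcy3 they were Tmed10 (r 0.976), Vdac1 (0.965) and Gmcl1 (0.964). For Adrb3 they were Ppp2r5b (0.910), Nt5c (0.908) and AC149090.1 (0.904), and for Gnas AI464131 (0.944), Ogdh (0.926) and Rab11fip3 (0.910). Adcy7 had the least close neighbours, Zfp692 (0.877), Rcc2 (0.860) and Firre (0.858). Adcy9 was nearest to Adgra3 (0.9505), Pde12 (0.934) and Polr1a (0.924). Pde3b was nearest to Galnt1 (0.968), Usp16 (0.963) and Copb1 (0.951), Pde4b to Ano3 (0.957), Hsd17b7 (0.956) and Mthfd2l (0.949), and Pde4d to Vdr (0.972), Ak1 (0.943) and Tmem2 (0.911). No 2 of the 8 genes shared a neighbour.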

How the data were processed

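Stranded libraries of selected messenger RNA were sequenced as 75-base single reads, per the labels' protocols. Per the submitters' processing notes the tools were TopHat2 2.0.12, featureCounts 1.4.6, edgeR 3.8.6 and StringTie 1.2.2, with build GRCm38 (mm10); the strand setting of the counting is not given in the sources used here. The signal deposited by the authors is a read count per gene, expressed per common library size and corrected with 1 factor for each library. The deposited tables also hold the authors' own p-values, false discovery rates, log2 fold changes, log2 levels and a score (a likelihood ratio), printed only where that table is named. Dividing by the worth of 1 read gave whole reads for 100% of values (tolerance 0.1). The tables hold no value of 0, were normalized apart and were fitted apart. All columns matched a sample.

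Because the deposited values are scaled, limma 3.58.1 (R 4.3.3) with a mean trend was run on log2(signal + 1) over all genes passing the filter, with Benjamini-Hochberg adjustment and a threshold of 0.05. On the recovered reads edgeR 4.0.16 called 5769 and 0 genes and DESeq2 1.42.0 called 6354 and 99, in TKO against WT and Dox against CTL, where limma called 5796 and 0. On simulated reads of TKO against WT (12711 genes), limma recovered 88% of 100 genes changed 1.5-fold and 100% of 100 changed 2-fold. For Dox against CTL (12703 genes) it recovered 83% and 99%, and the false calls were 9 and 11. The simulation used the same low spread for every gene, changed no weakly expressed gene and held no variation shared by numbered libraries. Its shares do not carry over to the real libraries. Same-numbered CTL and Dox libraries deviated together from their group means (correlations 0.863, 0.584 and 0.736 across genes), so for these the numbers pair the libraries, a pairing that comes from the data and not from the labels; the columns of Dox replicates 2 and 3 carry the same sequencing suffix. In GENCODE vM21, 99.8% and 99.9% of the identifiers had an entry. Exon lengths, positions and 3′ UTRs are from it, with 1 coding transcript per gene.

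The 9 genes and all lists were chosen with earlier results of these data known. Named are these genes, at most 4 called genes with the smallest p in each family list and comparison (Pde7a and the genes in the passages on seed matches, on Adrb1, on lipolysis and on opposite-strand genes were named after their values were seen), and the 3 genes with the highest r to each gene with a mean signal of at least 5. Python 3.11.15, numpy 2.4.6, pandas 2.3.3 and matplotlib 3.10.9 were used. Alternatives were library-size scaling, median centring, a pseudocount of 0.5, no filter, a filter at a signal of 5, removal of a length and GC trend, the replicate block, each library left out, edgeR and DESeq2, and, chosen after the data were seen, the block without each pair.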

Additional observations from a re-analysis of the deposited data

How the results depend on the processing

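In TKO against WT the number of genes called ranged from 3938 to 5723 with 1 library left out and from 1117 to 4468 (3654 without replicate 2) with the replicate block and 1 pair left out, against 5796. Library-size scaling called 3824 higher and 1913 lower where the main scaling called 2930 and 2866. Of the 9 genes, 1 to 2 were called with 1 library left out, 1 to 2 with the block and 1 pair left out, and 1 with the filter at a signal of 5, which removed Adrb3. Of the other pathway genes, 18 to 31 were called with 1 library left out and 6 to 24 with the block and 1 pair left out, against 30. WT and TKO numbers did not pair (same-numbered correlations 0.449, -0.135 and -0.293). With the replicate block there 5101 genes were called, 2 of the 9 and 23 of the other pathway genes, and the block changed no call of the 9 genes. In Dox against CTL the replicate block called 265 genes, 2 of the 9 and 2 other pathway genes, where limma without it called 0; DESeq2 called 99 and 1 of the 9; and the block with the length and GC trend removed called 931, 2 and 8. With the block and 1 pair left out these were 134 to 1534 genes (591 without replicate 3), 1 to 3 of the 9 and 0 to 14 others (4 without replicate 3), and with 1 library left out and no block 0 throughout. The changes that turned sign had not passed. In TKO these were Adcy9 (0.0336 with library-size scaling, 0.0218 with the block without replicate 2), Pde4b (0.0472 without TKO replicate 2 and -0.33 without TKO replicate 1, and 0.0563 with the block without replicate 2) and Pde4d (-0.15 without TKO replicate 1 and 0.47 without TKO replicate 2, and -0.0469 with the block without replicate 1). Pde4d passed only with the block without replicate 2 (0.52, limma adjusted p 0.0374). With doxycycline they were Gnas (-0.0059 without CTL replicate 1, -0.0294 without Dox replicate 2 and 0.24 without Dox replicate 1) and Pde4b (0.0694 without CTL replicate 3 and -0.35 without Dox replicate 3). Pde3b passed with doxycycline only with the block and without replicate 2 (0.38, limma adjusted p 0.0482). Fits with the block and without 1 pair rest heavily on the spread borrowed from other genes, so calls gained there are not stronger evidence. Causes were not tested. Of the 8 genes, Adrb3 had the fewest reads, so counting error bears most on it.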
